A study of Homo sapiens with 12 samples.

Results

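Glycolysis splits glucose into pyruvate, and in cells that ferment, the pyruvate is reduced to lactate and exported. Many of its enzymes exist as isozymes, products of separate genes that catalyse the same step with different kinetics or in different tissues. Cells short of oxygen stabilise the hypoxia-inducible factors (HIF), transcription factors that bind a short DNA core and raise glucose transporters, glycolytic enzymes and genes for acid export, vessel growth and mitochondrial turnover. With oxygen present, prolyl hydroxylases mark the HIF alpha subunits for destruction, so that most control of HIF lies in the protein and is not seen in RNA.

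The data described here are the RNA levels of 37 genes of glycolysis and the hypoxia response, chosen by symbol out of 60483 gene rows, in MCF10A cells, an immortalised and non-transformed human mammary epithelial line. All cells, controls included, had been transduced with a tetracycline-inducible TAZ-4SA, a constitutively active form of the Hippo pathway co-activator TAZ. Poly(A)-selected RNA was sequenced in 12 libraries, 3 each without doxycycline (No Dox, 0 h) and after 24, 48 and 72 h in 0.05 µg/mL Dox. The cells were kept in ordinary humidified air with CO2, and no group was made hypoxic. Doxycycline, TAZ-4SA and time in culture cannot be told apart in this design, because Dox-treated cells without the construct were not analysed here. Whether replicates were separate cultures is not stated, so each p-value covers the spread among these libraries, and that spread may be technical.

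All 37 genes passed the filter on low counts, among 14822 genes tested in all. SLC2A3 did so only through its 72 h libraries, where it was high, so its calls, though counted below, are description only. Levels are given in CPM, that is counts scaled for library size, with mean ± SD for n = 3, and differences as log2 fold changes ± SE with adjusted p from edgeR. A gene is said to have risen or fallen where adjusted p was under 0.05, and is called higher or lower where its change also reached 2-fold. Levels of different genes are compared only in TPM, a scale that also divides by transcript length. Library totals ranged from 15382564 to 26570132 counts, and mitochondrial genes took 5.03 to 5.27% of counts without Dox and 3.07 to 3.71% in Dox. WWTR1, the gene that encodes TAZ, stood at 71.7 ± 2.88 CPM without Dox. At 24, 48 and 72 h it stood at 887 ± 68.1, 844 ± 73.6 and 994 ± 59.3 CPM. In TPM it went from 26.6 ± 2.88 to 1002 ± 145, 994 ± 152 and 1126 ± 127. Its effective length, the usable transcript length averaged by isoform, went from 3229 ± 253 nt to 1091 ± 51.1, 1067 ± 42.2 and 1111 ± 11.5 nt. Counts do not correct for that shift. RNA of the gene itself and of the TAZ-4SA construct was not told apart here. The 9 mammary epithelial markers summed to 5782 to 6206 CPM without Dox. At 24, 48 and 72 h they summed to 5034 to 5628, 6085 to 6475 and 6727 to 7317 CPM. Of the 9, 2 were called higher at each time and 1, 2 and 3 lower. The shares called over all genes are given below. The 7 fibroblast markers summed to 54.5 to 56.4 CPM without Dox and 1.91 to 4.9 CPM in Dox, with COL1A2, COL3A1 and PDGFRA at 0 throughout. The 5 endothelial markers fell from a summed 33.5 to 34.9 CPM to between 0.121 and 12.5 CPM, and the 6 leukocyte markers from 21.2 to 26.1 CPM to between 4.31 and 9.92 CPM, with CD3E at 0. The 4 adipocyte markers summed to at most 0.591 CPM. The part of these shifts in the changes below was not tested, and in bulk RNA fewer cells that express a gene and less RNA per cell cannot be told apart.

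Across the 37 genes, the changes in Dox were mostly modest and led by a few. At 24 h against No Dox, 7 of 37 genes were called higher and 5 lower (12% and 17.7% of all genes tested). At 48 h, 4 were called higher and 2 lower (10.6% and 14.4% of all genes). At 72 h, 5 were called higher and 1 lower (10.2% and 12.3% of all genes). The share called higher was thus 18.9%, 10.8% and 13.5%, above that of all genes at 24 h and near it at 48 and 72 h. The share called lower was 13.5%, 5.41% and 2.7%, below that of all genes each time. Among the calls higher, SLC2A1 and PFKP at 24 h and ALDOC at 72 h lay at the threshold and were lost in some alternative fits. By adjusted p alone the picture leaned upward. At 24 h, 21 of 37 rose and 8 fell, against 37.1% and 38.1% of all genes. At 48 h, 18 rose and 10 fell, against 36% and 35.8%. At 72 h, 19 rose and 9 fell, against 34.3% and 34.8%. The number that fell at 72 h was 6 with effective lengths in edgeR or DESeq2 and 11 with upper-quartile scaling factors. In each of these fits 19 rose. The median log2 fold change of the members was 0.23, 0.21 and 0.24 at the 3 times, beside -0.03, -0.01 and -0.02 over all genes tested. Tested over the time course as a whole, 14 of 37 were called (35.9% of all genes). The genes called at every time were ADM, EGLN3 and ENO2, all higher, and CA12, lower. These comparisons share the No Dox libraries.

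**Figure D1:**
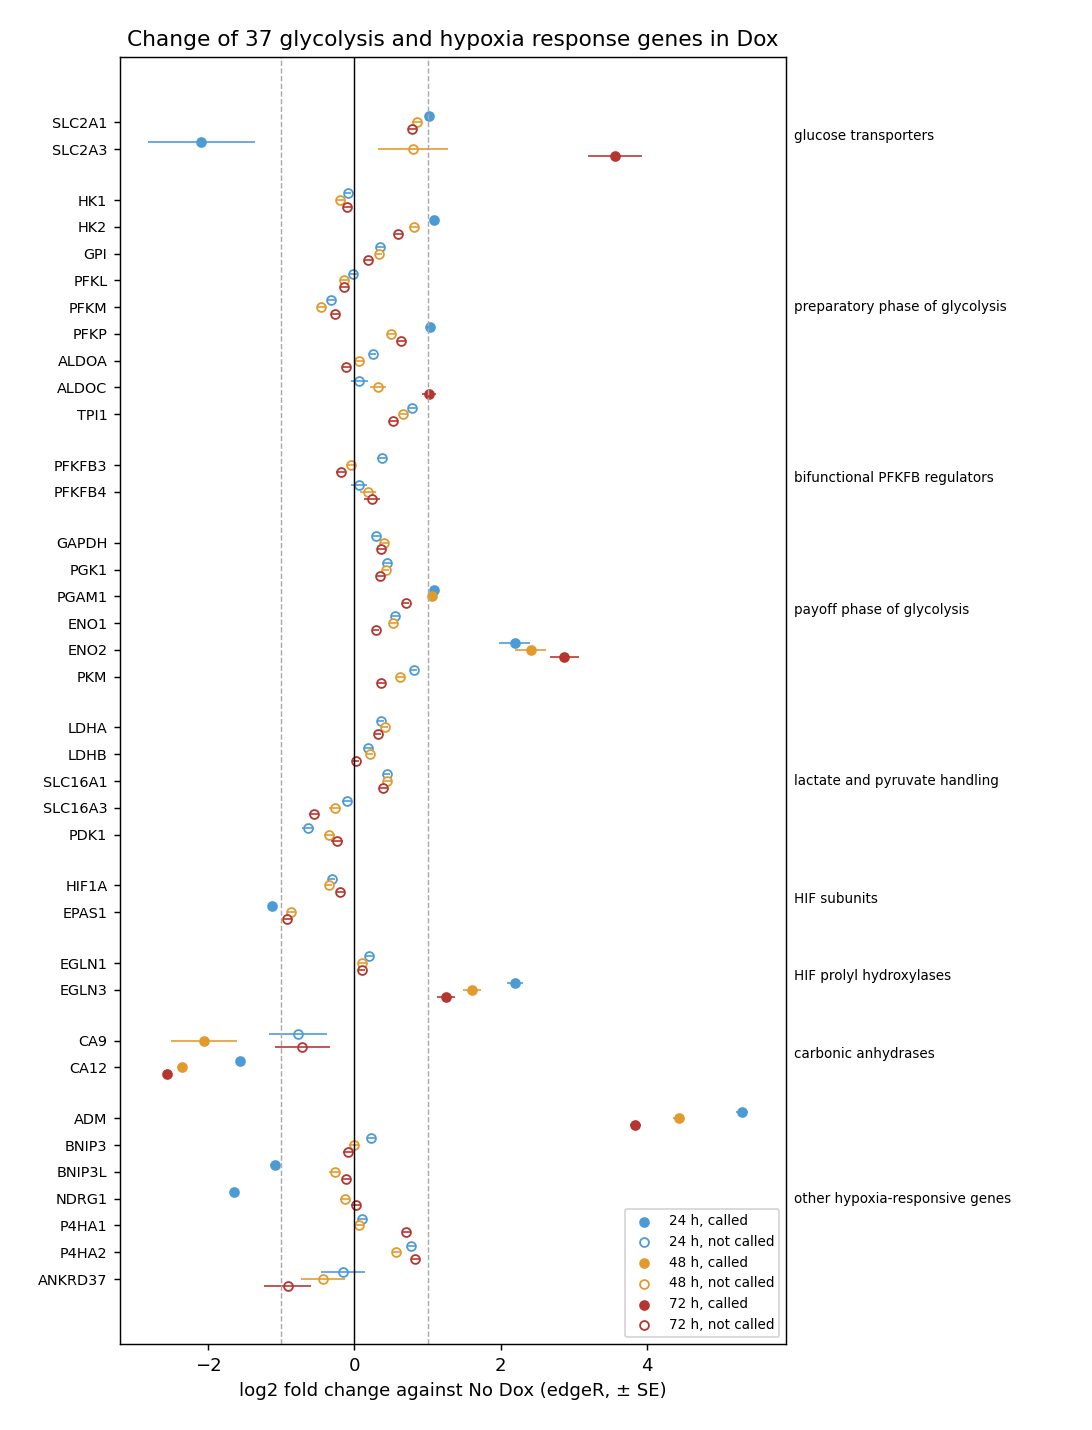
Log2 fold change against No Dox (x axis, ± SE) of each of the 37 genes at 24, 48 and 72 h in Dox, ordered by role. Filled points were called, and dashed lines mark a 2-fold change. Most enzymes lie between 0 and 1, while ADM lies at 3.84 to 5.30 and CA12 at -2.56 to -1.56.

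Glucose enters the cell through SLC2A1 (GLUT1), the widely expressed transporter, and SLC2A3 (GLUT3), a high-affinity transporter best known from neurons. SLC2A1 stood at 49.3, 48.9 and 55.9 CPM without Dox, at 107, 97 and 108 CPM at 24 h, at 98.7, 86.9 and 92.8 CPM at 48 h, and at 90.2, 88.4 and 88.7 CPM at 72 h. Every library in Dox was above every library without it. The log2 fold change was 1.02 ± 0.06 at 24 h (adjusted p = 6.11e-12), 0.85 ± 0.06 at 48 h (1.51e-10) and 0.79 ± 0.06 at 72 h (5.46e-10). The call at 24 h lay at the threshold and was lost without No Dox replicate 1 (0.995) or replicate 2 (0.995). SLC2A3 was close to undetected until 72 h, and only the 72 h libraries carried it past the filter on low counts. It had 8, 2 and 4 counts without Dox, 1 in each library at 24 h, 10, 11 and 4 at 48 h, and 68, 48 and 64 at 72 h. At 72 h it was 11.9-fold above No Dox in counts scaled to library size, with a 95% exact binomial interval of 6.89 to 22.1 that covers counting error only (edgeR log2 fold change 3.56 ± 0.37, adjusted p = 2.91e-08). The call of SLC2A3 as lower at 24 h rested on 3 counts against 14, a ratio of 0.213 (0.0392 to 0.762), and was lost without No Dox replicate 1. Rows of 3 SLC2A3 pseudogenes held a mean of 47.1% of the counts of gene and pseudogenes without Dox, 25% at 24 h, 0% at 48 h and 12.9% at 72 h. With these counts added, the change at 72 h was 2.96 (adjusted p = 9.12e-08). Even at 72 h, SLC2A3 made up 2.12 ± 0.343% of the TPM of both transporters. Of 11 other hexose transporters, 7 were tested. Of the 7, 1 (14.3%) was called higher at 24 and 48 h and 0 at 72 h, against 12%, 10.6% and 10.2% of all genes. At each time 3 were called lower, 42.9% of the 7, against 17.7%, 14.4% and 12.3% of all genes. Of those that reached 5 CPM, SLC2A9, a urate and hexose transporter, went from 10.8 to 5.6, 3.79 and 4.29 CPM, and was called lower at 48 and 72 h, and SLC2A11 went from 6 to 2.81, 4.29 and 3.87 CPM and was called lower at 24 h (-1.09). The others called, SLC2A6, SLC2A5 and SLC2A12, stayed under 5 CPM.

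The preparatory phase of glycolysis phosphorylates glucose and splits it into triose phosphates. Of its 9 genes, HK2 and PFKP were called higher at 24 h, 0 at 48 h and ALDOC at 72 h, and 0 were called lower at any time. The calls higher were 22.2% of the 9 at 24 h and 11.1% at 72 h, against 12% and 10.2% of all genes. By adjusted p alone 5 rose at each time, 55.6% of the 9, against 37.1%, 36% and 34.3% of all genes. In turn 1, 3 and 2 of the 9 fell, against 38.1%, 35.8% and 34.8% of all genes. The largest changes were in particular isozymes of a step. Hexokinase traps glucose in the cell as its 6-phosphate. HK2, the inducible isozyme, stood at 35.8, 35.6 and 36.2 CPM without Dox, at 71.7, 80.5 and 77.6 CPM at 24 h, at 61.9, 64.1 and 63.1 CPM at 48 h, and at 54.6, 55.8 and 52.3 CPM at 72 h. The 4 groups did not overlap. HK2 was highest at 24 h (1.09 ± 0.06, adjusted p = 3.17e-13) and lower again at 72 h than at 24 h (-0.50 ± 0.06, adjusted p = 1.59e-07). HK1, the housekeeping isozyme, was at 242 ± 11.5 CPM without Dox and 228 ± 5.22, 212 ± 0.909 and 225 ± 7.34 CPM in Dox, a difference that passed the test at 48 h (-0.19 ± 0.05) and not at 24 h (adjusted p = 0.0899) or 72 h (0.0531). HK2 accordingly took 8.34 ± 0.487% of hexokinase TPM without Dox and 17.1 ± 1.03, 15.5 ± 0.212 and 12.8 ± 0.469% in Dox, so that HK1 remained the more abundant in every library.

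Phosphofructokinase commits the sugar to glycolysis, and its platelet (PFKP), muscle (PFKM) and liver (PFKL) subunits went in different directions. PFKP stood at 287, 267 and 267 CPM without Dox, at 571, 528 and 571 CPM at 24 h, at 401, 389 and 371 CPM at 48 h, and at 417, 437 and 430 CPM at 72 h. All libraries in Dox were above all without it, and those at 24 h were above those at the later times. PFKP rose by 1.03 ± 0.05 at 24 h (adjusted p = 5.05e-14), 0.50 ± 0.05 at 48 h and 0.64 ± 0.05 at 72 h. The 24 h call lay at the threshold and was lost once effective lengths were entered in edgeR (0.96) or DESeq2 (0.96). PFKM fell at all 3 times, from 141, 139 and 140 CPM without Dox to 113, 110 and 113 CPM, then 102, 104 and 102 CPM, then 111, 117 and 124 CPM (log2 fold changes -0.32, -0.45 and -0.26, each ± 0.05). PFKL was at 125 ± 1.83 CPM without Dox and 123 ± 7.8, 113 ± 4.42 and 113 ± 3.61 CPM in Dox, changes of at most 0.14 on the log2 scale. PFKP thus made up 54.3 ± 1.32% of phosphofructokinase TPM without Dox and 72.3 ± 0.12, 66.8 ± 1.04 and 67.4 ± 0.501% in Dox, while the PFKM share went from 25.3 ± 1.34% to 12.9 ± 0.519, 15.8 ± 0.704 and 16.9 ± 0.703%. The bifunctional enzymes PFKFB3 and PFKFB4 make and remove fructose 2,6-bisphosphate, the activator of this step. PFKFB3 was at 44.7 ± 2.4 CPM without Dox, rose to 58.3 ± 1.36 CPM at 24 h (0.38 ± 0.07, adjusted p = 3.47e-05), stood at 43.4 ± 1.06 CPM at 48 h and at 39.6 ± 4.01 CPM at 72 h, below No Dox (-0.18 ± 0.07, adjusted p = 0.0274). PFKFB4, a gene known to respond to hypoxia, was at 8.77 ± 0.426 CPM without Dox and between 9.12 and 10.4 CPM in Dox, and did not pass the test at any time (lowest adjusted p = 0.0581).

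Between these steps lie glucose-6-phosphate isomerase (GPI), aldolase and triose-phosphate isomerase (TPI1). TPI1 rose from 445 ± 5.1 CPM to 768 ± 41.1, 710 ± 38.1 and 642 ± 59.1 CPM (0.79, 0.67 and 0.53, each ± 0.06), and GPI from 342 ± 13.3 CPM to 434 ± 27.4, 428 ± 15.9 and 389 ± 2.82 CPM (0.35, 0.33 and 0.19, each ± 0.05). ALDOA, the main aldolase here, rose at 24 h (0.25 ± 0.05, adjusted p = 0.000177) and stood near its No Dox level at 48 h (0.07) and 72 h (-0.11, adjusted p = 0.0635). ALDOC, known chiefly from brain, ran in the other order. It stood at 12.6, 9.92 and 11.9 CPM without Dox, at 13.6, 11.9 and 10.9 CPM at 24 h, at 16.1, 14 and 13.1 CPM at 48 h, and at 22, 23.5 and 24.6 CPM at 72 h. The 24 h libraries overlapped the No Dox libraries, and the 72 h libraries were above all others. ALDOC rose by 1.02 ± 0.1 at 72 h against No Dox (adjusted p = 2e-08) and by 0.95 ± 0.1 at 72 h against 24 h (adjusted p = 1.07e-07). The 72 h call sat on the fold threshold and was lost without No Dox replicate 2 (0.94) or 72 h replicate 3 (0.99) and with effective lengths in DESeq2 (0.96) or edgeR (0.97), though not its direction. ALDOC was 1.63 ± 0.096% of aldolase TPM at 72 h, against 0.809 ± 0.25% without Dox.

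**Figure D2:**
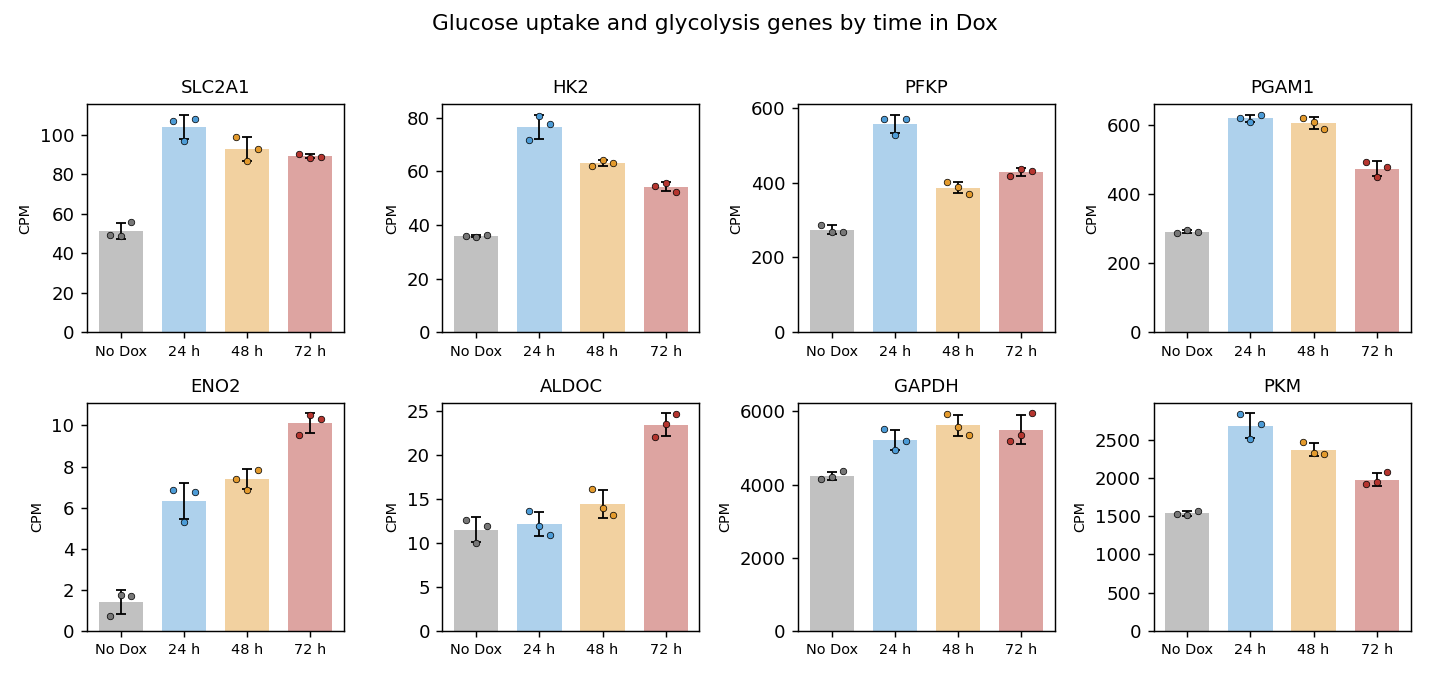
Level (CPM, y axis) of 8 glucose uptake and glycolysis genes at each time. Each bar is the mean of 3 libraries with its SD, and each point is a library. HK2 and PFKP are highest at 24 h, PGAM1 overlaps between 24 and 48 h, and ENO2 and ALDOC are highest at 72 h.

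The payoff phase oxidises triose phosphate and yields ATP and pyruvate. All 6 of its genes rose at each of the 3 times by adjusted p, against 37.1%, 36% and 34.3% of all genes. The medians of the 6 were 0.68, 0.58 and 0.37. Of the 6, 2, 2 and 1 were called higher (33.3%, 33.3% and 16.7%, against 12%, 10.6% and 10.2% of all genes). PGAM1, phosphoglycerate mutase, stood at 287, 295 and 291 CPM without Dox, at 620, 609 and 629 CPM at 24 h, at 621, 608 and 588 CPM at 48 h, and at 492, 449 and 477 CPM at 72 h. Every library in Dox was far above every library without it. Its log2 fold changes were 1.09 ± 0.05 (adjusted p = 4.7e-15), 1.06 ± 0.05 (9.08e-15) and 0.70 ± 0.05 (1.12e-11). PKM, pyruvate kinase, rose from 1537 ± 27.7 CPM to 2687 ± 160, 2371 ± 86.5 and 1981 ± 83.5 CPM (0.81, 0.63 and 0.37, each ± 0.05), and ENO1, the general enolase, from 2223 ± 49.3 CPM to 3268 ± 160, 3221 ± 139 and 2714 ± 135 CPM (0.56, 0.53 and 0.29). GAPDH, often taken as a reference gene, rose too. It stood at 4160, 4201 and 4369 CPM without Dox, at 5515, 4948 and 5194 CPM at 24 h, at 5924, 5573 and 5365 CPM at 48 h, and at 5198, 5359 and 5945 CPM at 72 h. All Dox libraries were above all No Dox libraries, by 0.30 ± 0.05, 0.41 ± 0.05 and 0.37 ± 0.05 on the log2 scale (adjusted p of at most 3.42e-05). PGK1, which makes ATP in the next step, rose by 0.45, 0.43 and 0.35, each ± 0.05.

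ENO2, the enolase of neurons, was the most strongly changed enzyme of the pathway in CPM, from a very low base. It stood at 0.737, 1.77 and 1.72 CPM without Dox, at 6.88, 5.29 and 6.78 CPM at 24 h, at 7.4, 6.87 and 7.85 CPM at 48 h, and at 9.53, 10.5 and 10.3 CPM at 72 h. No library in Dox overlapped those without Dox, and the 72 h libraries were above the earlier ones. The log2 fold changes were 2.19 ± 0.21 (adjusted p = 6.35e-09), 2.41 ± 0.21 (1.22e-09) and 2.87 ± 0.2 (4.41e-11), and 72 h was above 24 h by 0.68 ± 0.16 (adjusted p = 0.000934). RSEM also gives an effective length, the usable transcript length averaged by isoform. For ENO2 it went from 1274 ± 521 nt in No Dox to 1805 ± 158, 1789 ± 40.3 and 1714 ± 109 nt in Dox, a shift that counts do not correct for. On the TPM scale ENO2 was at 1.49 ± 0.971 without Dox and 4.28 ± 0.379, 5.16 ± 0.505 and 7.39 ± 0.561 in Dox. It made up 0.0853 ± 0.0576% of enolase TPM without Dox and 0.327 ± 0.019% at 72 h, so ENO1 carried nearly all enolase RNA.

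Lactate dehydrogenase converts pyruvate to lactate and back. LDHA, the subunit of fermenting tissues, rose from 1625 ± 24.2 CPM to 2089 ± 38.2, 2173 ± 50 and 2032 ± 85.8 CPM (0.36, 0.42 and 0.32, each ± 0.04). LDHB, the heart subunit, rose from 765 ± 14.2 CPM to 874 ± 29.6 and 886 ± 31.6 CPM (0.19 and 0.21, each ± 0.05) and was at 775 ± 43.2 CPM at 72 h (0.02, adjusted p = 0.72). The LDHA share of LDH TPM was 61.7 ± 2.06% without Dox and 62.6 ± 0.831, 63.8 ± 0.253 and 62.7 ± 4.15% in Dox, with overlap between the groups. The monocarboxylate transporters moved oppositely. SLC16A1 (MCT1) stood at 196, 198 and 203 CPM without Dox, at 255, 282 and 270 CPM at 24 h, at 265, 282 and 267 CPM at 48 h, and at 267, 259 and 258 CPM at 72 h, and rose by 0.44, 0.45 and 0.39, each ± 0.05. SLC16A3 (MCT4), the lactate exporter of hypoxic and glycolytic cells, stood at 537, 510 and 535 CPM without Dox, at 501, 456 and 525 CPM at 24 h, at 469, 421 and 420 CPM at 48 h, and at 416, 324 and 338 CPM at 72 h. It overlapped No Dox at 24 h (-0.10, adjusted p = 0.242) and fell at 48 h (-0.27 ± 0.07) and 72 h (-0.55 ± 0.07, adjusted p = 9.42e-07). SLC16A1 accordingly went from 15.9 ± 0.367% of the pair's TPM to 20.4 ± 2.28, 23.1 ± 2.21 and 25.1 ± 1.89%.

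PDK1, a kinase that shuts off pyruvate dehydrogenase and is known as a HIF target, fell from 32.5 ± 0.875 CPM to 21.1 ± 1.87 CPM at 24 h (-0.63 ± 0.08, adjusted p = 4.19e-07), 25.8 ± 2.03 CPM at 48 h (-0.34) and 27.5 ± 1.84 CPM at 72 h (-0.24). Its effective length was 5676 ± 341 nt without Dox and 4393 ± 267, 5264 ± 806 and 4041 ± 324 nt in Dox. On the TPM scale PDK1 was at 6.85 ± 0.577 without Dox, 5.9 ± 0.798 and 6.17 ± 0.59 at 24 and 48 h, and 8.64 ± 1.62 at 72 h, so the direction at 72 h differed between the scales. With effective lengths in the test, the 72 h difference was 0.22 in edgeR (adjusted p = 0.133) and 0.21 in DESeq2 (0.161). Among 15 partners in pyruvate and lactate handling, all tested, 0, 0 and 1 were called higher and 2, 1 and 2 lower at 24, 48 and 72 h. The share lower was 13.3%, 6.67% and 13.3%, against 17.7%, 14.4% and 12.3% of all genes. The 1 called higher at 72 h made 6.67%, against 10.2% of all genes. The related kinase PDK4 went from 99.1 CPM to 1.74, 3.36 and 5.67 CPM (-5.83, -4.86 and -4.11), and PDK2 from 8.04 CPM to 2.95, 4.95 and 3.03 CPM, called lower at 24 and 72 h. MPC2, a subunit of the mitochondrial pyruvate carrier, went from 50.2 CPM to 102 CPM at 72 h (1.02).

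Summed on the TPM scale, the 17 glycolytic enzyme and lactate dehydrogenase genes took a larger part of all TPM in Dox. Such a share also depends on the levels of all other genes. They made up 1.29, 1.3 and 1.32% of TPM without Dox, 1.82, 1.76 and 1.77% at 24 h, 1.83, 1.81 and 1.78% at 48 h, and 1.63, 1.74 and 1.65% at 72 h. Every library in Dox was above every library without it. In TPM the sum went from 13032 ± 135 to 17841 ± 345, 18073 ± 255 and 16735 ± 561. The sum is led by a few genes. Without Dox, GAPDH was the most abundant at 4859 ± 123 TPM, followed by ENO1 (1756 ± 36.7), ALDOA (1556 ± 61.2), LDHA (1417 ± 96.7), PKM (934 ± 14.7), LDHB (879 ± 15.2) and TPI1 (553 ± 9.37). PGK1 (258 ± 5.46), GPI (222 ± 5.27) and PGAM1 (222 ± 2.83) were lower, and GPI and PGAM1 did not differ beyond their spread. At 24 h PGAM1, at 486 ± 9.59 TPM, stood above PGK1 (359 ± 5.19) and GPI (284 ± 2.02).

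**Figure D3:**
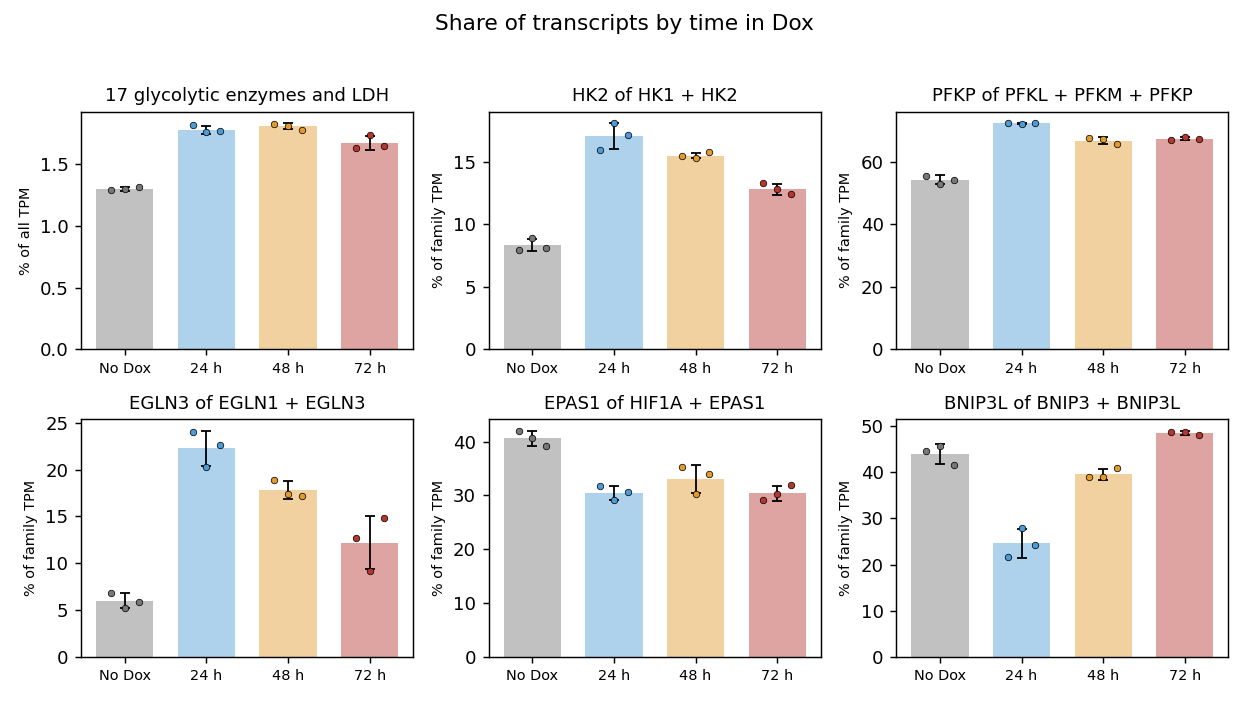
Share of transcripts (% of TPM, y axis) at each time, for the 17 glycolytic enzyme and LDH genes out of all TPM and for 5 members out of their isozyme or paralogue family. A bar gives the mean of 3 libraries, its whisker the SD and the points the libraries. PFKP goes from 54.3% to 72.3% of its family at 24 h, and BNIP3L from 44% to 24.6% at 24 h and 48.6% at 72 h.

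In the pathways that branch from glycolysis, single genes were called, at shares to be read beside the 12%, 10.6% and 10.2% of all genes called higher and the 17.7%, 14.4% and 12.3% called lower. Of 20 other glycolytic isozymes and hexose-handling genes, 9 were tested, of which TIGAR was called higher at 24 h and PGM1 at 72 h, 11.1% each time. TIGAR, a fructose bisphosphatase, went from 17.5 CPM to 36.9, 30.5 and 22.6 CPM (1.07, 0.80 and 0.36). PGM1, which joins glucose phosphates to glycogen, went from 124 CPM to 127, 218 and 318 CPM (0.05, 0.82 and 1.37), a late course. Of 7 pentose phosphate pathway genes, all tested, TKT alone was called, lower at each time (14.3%). This transketolase went from 1664 CPM to 727, 726 and 819 CPM (-1.20, -1.20 and -1.02). Of 8 glycogen genes, 7 were tested. UGP2, which makes UDP-glucose, was called higher at 48 h (1.06), glycogen phosphorylase PYGB lower at 48 and 72 h (-1.07 and -1.22), and the branching enzyme GBE1 lower at 72 h (68 to 33.9 CPM), which made 28.6% of the list lower at 72 h.

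Both genes for HIF alpha subunits among the 37 fell in Dox. HIF1A and EPAS1 encode the alpha subunits HIF-1α and HIF-2α. EPAS1 (chromosome 2, 46293667 to 46386697, plus strand, GRCh38) stood at 345, 321 and 325 CPM without Dox, at 150, 153 and 155 CPM at 24 h, at 180, 181 and 187 CPM at 48 h, and at 178, 175 and 171 CPM at 72 h. All Dox libraries were below all No Dox libraries, and the lowest were those at 24 h. The log2 fold changes were -1.12 ± 0.05 (adjusted p = 3.53e-15), -0.86 ± 0.05 (3.37e-13) and -0.92 ± 0.05 (1.19e-13). HIF1A stood at 281, 278 and 279 CPM without Dox, at 214, 243 and 219 CPM at 24 h, at 205, 230 and 224 CPM at 48 h, and at 242, 249 and 242 CPM at 72 h. It fell by less, by 0.31, 0.35 and 0.19, each ± 0.05, on the log2 scale. HIF1A was therefore 59.4 ± 1.43% of the pair's TPM without Dox and 69.5 ± 1.27, 66.9 ± 2.62 and 69.6 ± 1.38% in Dox. Of 8 other oxygen-sensing genes, 7 were tested. By adjusted p, 4, 4 and 6 fell at 24, 48 and 72 h. Over all genes the shares that fell were 38.1%, 35.8% and 34.8%. Of the 7, 0 were called higher. CITED2 and VHL were called lower, 28.6%, 14.3% and 28.6% of the 7 at the 3 times. The shares of all genes called lower were 17.7%, 14.4% and 12.3%. CITED2, a HIF target whose product competes with HIF for its co-activator, went from 136 CPM to 30.7, 52.3 and 54.6 CPM (-2.15, -1.38 and -1.32). VHL, the ubiquitin ligase subunit that removes hydroxylated HIF, went from 78.5 CPM to 36.6, 39.3 and 35.6 CPM, called at 24 h (-1.10) and 72 h (-1.13) but not at 48 h (-0.99).

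Of the HIF prolyl hydroxylases, EGLN3 was called higher at each time. EGLN3 (PHD3; chromosome 14, 33924227 to 34462774, minus strand), itself a well-known hypoxia-induced gene, stood at 3.41, 3.47 and 3.7 CPM without Dox, at 16.9, 16.3 and 15.2 CPM at 24 h, at 11, 10.6 and 10.8 CPM at 48 h, and at 8.41, 7.45 and 9.11 CPM at 72 h. The 4 groups did not overlap, with the peak at 24 h. Its log2 fold changes were 2.20 ± 0.11 (adjusted p = 1.91e-13), 1.61 ± 0.12 (7.96e-11) and 1.25 ± 0.12 (8.23e-09), and it was lower at 72 h than at 24 h (-0.95 ± 0.1, adjusted p = 5.76e-08). EGLN1 (PHD2), the main hydroxylase in normal oxygen, was at 95.9 ± 3.28 CPM without Dox and 110 ± 6.1, 103 ± 2.96 and 103 ± 4.15 CPM in Dox, and passed the test at 24 h alone (0.20 ± 0.05, adjusted p = 0.00272), but not with effective lengths, where its change was just below 0 (adjusted p = 0.994 in edgeR). EGLN2 (PHD1), no member of the 37, went from 47.2 CPM to 60.7, 50.8 and 38.3 CPM, with a rise at 24 h (0.36, adjusted p = 1.21e-05) and a fall at 72 h (-0.30, adjusted p = 0.000174). The EGLN3 share of the TPM of EGLN1 and EGLN3 was 5.97 ± 0.803% without Dox and 22.3 ± 1.86, 17.8 ± 0.949 and 12.2 ± 2.85% in Dox.

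ADM, adrenomedullin, a vasodilator peptide and a classical hypoxia-induced gene, had the largest change of the 37 against No Dox. It lies on chromosome 11, 10305073 to 10307397, plus strand. ADM stood at 7.51, 11.4 and 9.8 CPM without Dox, at 374, 370 and 370 CPM at 24 h, at 213, 201 and 196 CPM at 48 h, and at 135, 133 and 138 CPM at 72 h. It was 39.3-fold higher at 24 h, 21.6-fold at 48 h and 14.4-fold at 72 h. The corresponding log2 fold changes were 5.30 ± 0.08 (adjusted p = 7.16e-22), 4.43 ± 0.08 (1.19e-20) and 3.84 ± 0.08 (1.36e-19). The groups were far apart in both steps down, and 72 h was below 24 h by 1.45 ± 0.06 on the log2 scale (adjusted p = 9.01e-14). In TPM, ADM went from 9.02 ± 1.89 without Dox to 343 ± 12.4 at 24 h, which placed it above HIF1A (101 ± 12.6 TPM) and EPAS1 (44.1 ± 2.83 TPM).

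The carbonic anhydrases CA9 and CA12 sit in the cell membrane and buffer the acid that glycolysis exports, and both are textbook hypoxia-induced genes. Here CA12 fell at each time, and CA9 was called lower at 48 h. CA12 (chromosome 15, 63321378 to 63381846, minus strand) stood at 110, 110 and 112 CPM without Dox, at 37.3, 35.8 and 39.3 CPM at 24 h, at 21.2, 21.1 and 22.3 CPM at 48 h, and at 18.4, 20.6 and 17.8 CPM at 72 h. Every step was downward in the group means, and no Dox library came near the No Dox level. The log2 fold changes were -1.56 ± 0.06 (adjusted p = 1.15e-15), -2.36 ± 0.06 (3.42e-18) and -2.56 ± 0.06 (1.17e-18). CA9 was barely expressed. It had 23, 21 and 31 counts without Dox, 26, 13 and 6 at 24 h, 4, 9 and 5 at 48 h, and 21, 9 and 20 at 72 h. It was called lower at 48 h (-2.06 ± 0.45, adjusted p = 0.00036) and did not pass the test at 24 h (adjusted p = 0.0774) or 72 h (0.106). Its effective length was 1300 ± 74.5 nt without Dox, 749 ± 445 nt at 24 h and 962 ± 598 nt at 48 h.

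The promoter sequences of the 4 genes called at every time, ADM, EGLN3, ENO2 and CA12, are shown with that of BNIP3, which had the most hypoxia response cores of all member promoters. Each is the 250 bases before a RefSeq transcript start (GRCh38.p14), written 5′ to 3′ on the gene's own strand, with the core in capitals, that is ACGTG or GCGTG or their reverse complements CACGT and CACGC.
ADM: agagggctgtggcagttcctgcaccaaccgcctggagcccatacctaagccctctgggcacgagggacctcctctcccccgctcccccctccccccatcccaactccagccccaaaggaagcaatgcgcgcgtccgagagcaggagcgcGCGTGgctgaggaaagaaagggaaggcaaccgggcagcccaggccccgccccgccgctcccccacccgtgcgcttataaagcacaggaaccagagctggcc
EGLN3: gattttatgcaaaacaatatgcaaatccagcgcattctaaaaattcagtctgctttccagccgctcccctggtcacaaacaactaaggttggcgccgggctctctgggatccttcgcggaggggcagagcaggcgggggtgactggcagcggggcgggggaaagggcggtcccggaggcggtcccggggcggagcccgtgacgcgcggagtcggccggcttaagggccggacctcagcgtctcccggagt
ENO2: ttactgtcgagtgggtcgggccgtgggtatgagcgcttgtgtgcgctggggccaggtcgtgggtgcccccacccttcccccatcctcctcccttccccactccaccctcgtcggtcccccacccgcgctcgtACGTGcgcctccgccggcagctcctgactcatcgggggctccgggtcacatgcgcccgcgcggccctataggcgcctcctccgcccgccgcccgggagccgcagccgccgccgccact
CA12: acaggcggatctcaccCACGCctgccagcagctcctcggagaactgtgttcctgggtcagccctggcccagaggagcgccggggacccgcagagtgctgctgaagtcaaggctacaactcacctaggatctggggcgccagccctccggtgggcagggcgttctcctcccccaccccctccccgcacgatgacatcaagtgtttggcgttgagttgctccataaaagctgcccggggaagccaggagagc
BNIP3: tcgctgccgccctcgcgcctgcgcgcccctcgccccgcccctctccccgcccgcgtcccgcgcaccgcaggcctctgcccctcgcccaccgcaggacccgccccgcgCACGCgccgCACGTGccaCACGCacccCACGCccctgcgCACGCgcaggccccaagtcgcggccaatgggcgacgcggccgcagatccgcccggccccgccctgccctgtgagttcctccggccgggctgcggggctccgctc
The ADM sequence spans chr11:10304823-10305072 on the plus strand, EGLN3 chr14:33951075-33951324 on the minus strand, ENO2 chr12:6914330-6914579 on the plus strand, CA12 chr15:63381847-63382096 on the minus strand and BNIP3 chr10:131981924-131982173 on the minus strand. Counting the base just before the start as -1, ADM held 1 core beginning at -101, ENO2 held 1 at -118 and CA12 held 1 at -234. EGLN3 held 0 in this window, and BNIP3 held 5. These 5 promoters were picked for the calls of their genes or for their number of cores. Bases outside the window were not searched, and a link between cores and the direction of change was not tested. Of the 37 genes, 33 matched the RefSeq table, with 60 promoters in all because several genes have more than 1 start, and 27 of the 33 had a core before at least 1 start. The core was found in 35 of these 60 promoters (58.3%) and in 43.2% of all 35116 RefSeq promoters of the same length. The E-box CACGTG, which contains the core, was found in 13.3% and 6.34%. GGAATG, a motif of the TEAD factors through which TAZ reaches DNA, was searched on both strands after the other results were known and was found in 4 of the 60 (6.67%) and in 11.9% of all promoters. Such letter matches say nothing of whether a factor was bound.

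The remaining hypoxia-responsive genes followed several courses. NDRG1, a stress-responsive gene linked to differentiation, stood at 309, 302 and 315 CPM without Dox, at 100, 96.6 and 101 CPM at 24 h, at 287, 285 and 276 CPM at 48 h, and at 346, 284 and 310 CPM at 72 h. In CPM the 24 h libraries stood far below all others, while those at 72 h overlapped No Dox. In TPM, NDRG1 was at 148 ± 7.41 without Dox, 49.7 ± 0.762 at 24 h and 180 ± 13.4 at 72 h. On that scale every library at 72 h was above every library without Dox. Its effective length was 2487 ± 109 nt without Dox and 2187 ± 115 nt at 72 h. NDRG1 fell by 1.64 ± 0.06 on the log2 scale at 24 h (adjusted p = 3.91e-16), was at -0.13 ± 0.06 at 48 h and 0.02 ± 0.06 at 72 h, neither of which passed the test, and rose by 1.66 ± 0.06 from 24 to 72 h (adjusted p = 3.32e-15). BNIP3L (NIX), a receptor for the removal of mitochondria, followed a similar course. It stood at 57.8, 53.4 and 52.3 CPM without Dox, at 25.5, 27.7 and 23.9 CPM at 24 h, at 48.6, 43.7 and 43.6 CPM at 48 h, and at 50.3, 50.5 and 50.9 CPM at 72 h. Again the 24 h libraries were the lowest, by -1.08 ± 0.07 against No Dox (adjusted p = 6.18e-12), and at 72 h the difference was -0.11 ± 0.06 (adjusted p = 0.14). The effective length of BNIP3L was 2638 ± 130 nt without Dox and 2160 ± 122 nt at 72 h. With effective lengths in the test, its 72 h difference was 0.15 in edgeR (adjusted p = 0.168) and 0.14 in DESeq2 (0.204). Its paralogue BNIP3, with the same role, was at 67 ± 2.18 CPM without Dox, rose to 78.5 ± 3.29 CPM at 24 h (0.23 ± 0.06, adjusted p = 0.00191), and stood at 66.8 ± 3.29 and 63.2 ± 4.13 CPM later. BNIP3L was thus 44 ± 2.2% of the pair's TPM without Dox, 24.6 ± 3.2% at 24 h and 48.6 ± 0.416% at 72 h.

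P4HA1 and P4HA2 are the catalytic subunits of collagen prolyl hydroxylase, which stabilises collagen helices. P4HA1 stood at 47.3, 43.5 and 44.9 CPM without Dox, at 51.1, 48 and 47.8 CPM at 24 h, at 46.2, 46.8 and 50.1 CPM at 48 h, and at 77.3, 71.5 and 73.5 CPM at 72 h. It rose at 72 h alone (0.71 ± 0.06, adjusted p = 6.51e-10), and 72 h was also above 48 h (0.64 ± 0.06, adjusted p = 4.83e-08). P4HA2 stood at 33.2, 32.8 and 33.1 CPM without Dox, at 60.4, 52.5 and 56.9 CPM at 24 h, at 47.9, 47.6 and 51.7 CPM at 48 h, and at 60.6, 57.4 and 57.8 CPM at 72 h. P4HA2 was raised from 24 h on, by 0.78, 0.57 and 0.83, each ± 0.06. ANKRD37, a small ankyrin repeat gene known as a HIF target, was low throughout, at 1.68 ± 0.355 CPM without Dox and 0.894 ± 0.33 CPM at 72 h (-0.91 ± 0.32, adjusted p = 0.015), and did not pass the test at 24 or 48 h.

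**Figure D4:**
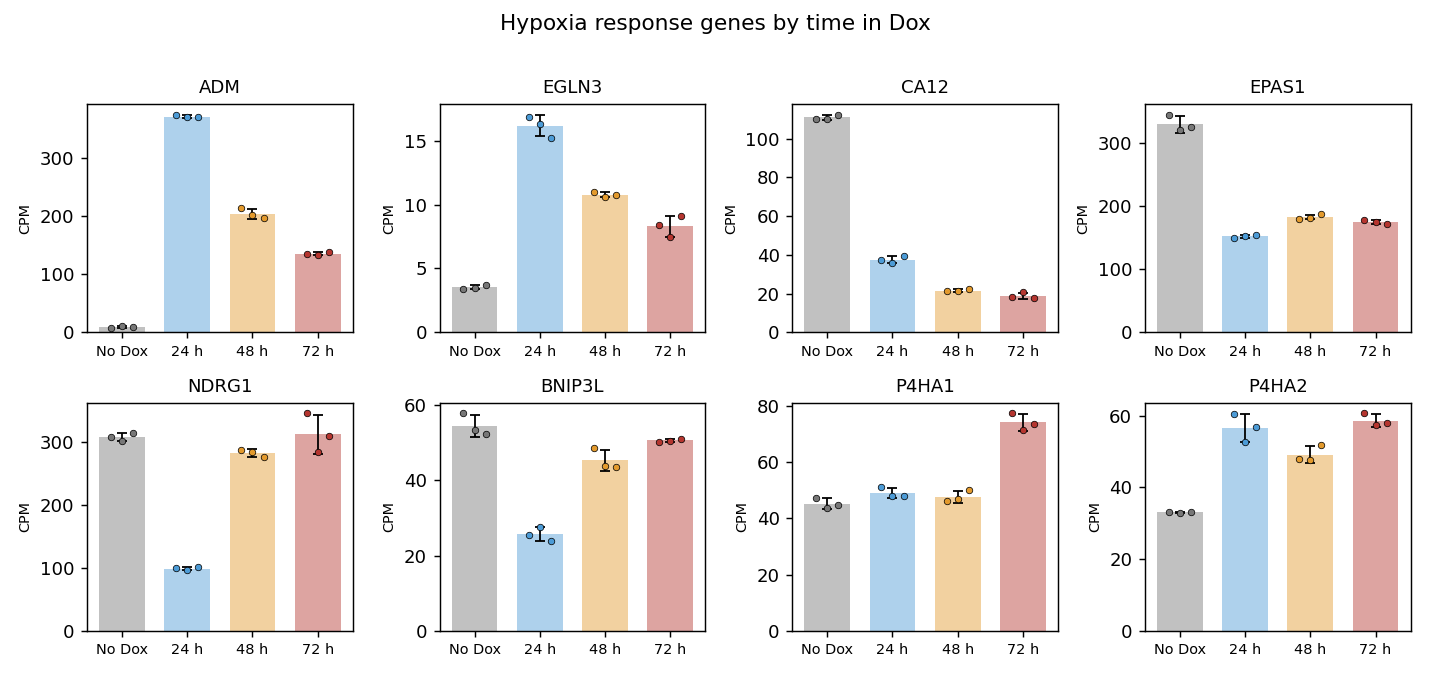
Level (CPM, y axis) of 8 hypoxia response genes at each time. Means of 3 libraries are drawn as bars with their SD, over points for the libraries. ADM and EGLN3 peak at 24 h, CA12 and EPAS1 stay below No Dox, NDRG1 and BNIP3L dip at 24 h, and P4HA1 is raised at 72 h.

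A list of 31 further hypoxia-responsive genes, all of them tested, also went both ways. At 24 h 6 were called higher and 10 lower, at 48 h 6 and 5, and at 72 h 6 and 4, that is 19.4% higher at each time and 32.3%, 16.1% and 12.9% lower, against 12%, 10.6% and 10.2% higher and 17.7%, 14.4% and 12.3% lower of all genes. The medians were -0.18, -0.08 and -0.05. Among those higher, VLDLR, a lipoprotein receptor, went from 0.194 CPM to 1.81, 16.1 and 10.4 CPM. LOXL2, a collagen cross-linking enzyme, went from 38.7 CPM to 208, 165 and 197 CPM (2.42, 2.09 and 2.35). STC2, a secreted stanniocalcin, went from 88.4 CPM to 137, 444 and 262 CPM and was called at 48 and 72 h (2.33 and 1.56). Among those lower, the chemokine receptor CXCR4 went from 7.62 CPM to 0.0312, 0.177 and 0.259 CPM, the first of these being under the floor of 3 counts over the group (0.0515 CPM). MXI1, an antagonist of MYC, went from 39 CPM to 7.29, 12.7 and 15 CPM (-2.42, -1.61 and -1.38). LOX, another collagen cross-linker, went from 114 CPM to 26.5 CPM at 24 h (-2.10) and to 140 CPM at 72 h (0.29), so that it too was lowest at 24 h.

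Compared with each other, the times in Dox differed in few of the 37 genes by 2-fold. At 48 h against 24 h, SLC2A3 and NDRG1 were called higher and CA9 lower (3.08% and 1.44% of all genes). SLC2A3 passed the filter through its 72 h libraries alone. Neither SLC2A3 nor CA9 was tested when only the 24 and 48 h libraries were fitted. At 72 h against 48 h, SLC2A3 and CA9 were called higher and 0 genes lower (2.3% and 0.938% of all genes). At 72 h against 24 h, SLC2A3 and NDRG1 were called higher and ADM lower (8.28% and 3.99% of all genes). By adjusted p alone, 8 were higher and 17 lower at 72 h than at 24 h, against 30.5% and 30.2% of all genes, with a median of -0.10. Of the glycolytic enzymes, HK2 (-0.50), PKM (-0.44), PGAM1 (-0.39), PFKP (-0.38), ENO1 (-0.27) and TPI1 (-0.26) were among those lower. GAPDH (0.08, adjusted p = 0.226), PGK1 (-0.10, 0.0606) and LDHA (-0.04, 0.433) did not pass this test, and ENO2 (0.68) and ALDOC (0.95) were higher. The calls of CA9 between times in Dox rested on its few counts and were lost without any 1 of the 48 h libraries, without 24 h replicate 1 and with effective lengths in edgeR for 48 h against 24 h, where the groups also overlapped, with log2 fold changes between -1.80 and -0.73 over these and the other alternatives that lost the call. For 72 h against 48 h they were lost without 48 h replicate 1 or 3 or 72 h replicate 1 or 3, with values between 1.12 and 1.39, and with effective lengths in DESeq2 (0.73) or edgeR (0.79).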

How the data were processed

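The labels define 12 libraries in 4 groups of 3. The authors aligned strand-specific paired-end reads to GRCh38 (GENCODE version 22) with STAR and estimated levels with RSEM, with no version given in the sources used here. The deposited expected counts share reads that fit several genes, and were rounded and used for all tests. The deposited TPM was used for levels between genes and shares within families. The deposited effective lengths and posterior SDs of counts were read as descriptions, the effective lengths also entered alternative fits and shares, and FPKM was not used. Rows were named by identifier from GENCODE version 44, which also gave the coordinates.

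Genes were filtered with filterByExpr, scaled with TMM factors and fitted over all 12 libraries in 1 edgeR quasi-likelihood model (R 4.3.3, edgeR 4.0.16, limma 3.58.1), with Benjamini-Hochberg adjustment over 14822 genes and calls at adjusted p under 0.05 with a log2 fold change of 1 or more in either direction. The biological coefficient of variation was 5.71%. The fit was tested on simulated data. No member had an SD from shared reads above 5% of its count in any library, but pseudogenes held up to 75% of the few SLC2A3 reads. Ratios of few counts carry 95% exact binomial intervals. The value in every library is given for members called against No Dox that reached 5 CPM in 1 of the groups compared and for up to 6 other members that carry a comparison of isozymes, and GAPDH was added after its values were seen. From each pathway list at most 3 called genes per direction that reached 5 CPM are named, those with the largest change, and EGLN2, SLC2A5, SLC2A6 and SLC2A12 were added after their values were seen. The 37 genes and all lists were chosen with earlier results of these data known. Alternatives were DESeq2 1.42.0, other scaling factors and filters, effective lengths, glmTreat, fits of the compared groups, leaving out each library in turn and a replicate block.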

Additional observations from a re-analysis of the deposited data

Results flagged for a closer look

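In 3 of the 37 genes, the change against No Dox differed by more than 2-fold between 72 h and 24 h in Dox. These were called in edgeR's test of 72 h against 24 h itself. Of the 37, 5.41% were called higher and 2.7% lower in that test, beside 8.28% and 3.99% of all genes. SLC2A3 was higher at 72 h than at 24 h by 5.66 on the log2 scale (SE 0.49, adjusted p = 3.19e-09). It passed the filter on low counts only through its 72 h libraries. Since its 24 h libraries held 3 counts in all against 180 at 72 h, the fitted value depends on the prior count, and the ratio of scaled counts was 55.8 with a 95% exact binomial interval of 18.8 to 273. ADM differed by -1.45 (SE 0.06), from 371 to 135 CPM, lower in 3 of 3 libraries than in any at 24 h. NDRG1 differed by 1.66 (SE 0.06), from 99.2 to 313 CPM, higher in 3 of 3 libraries than in any at 24 h. Groups of 3 libraries are too small for a test of single outlying libraries.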

How the results depend on the processing

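Over all alternatives and comparisons, 3725 of 3770 members' log2 fold changes stayed on their side of the threshold, 35 lost the call and 10 gained it. Comparisons of SLC2A3 and CA9 that the filter removed in fits of only the groups compared are not among the 3770. In 86 the sign differed, in 0 of them for a called change, and in 4 for a change past adjusted p alone, PDK1 at 72 h (0.22 and 0.21) and EGLN1 at 24 h (just below 0) with effective lengths in edgeR and DESeq2. The glmTreat test, which asks whether a change exceeds 2-fold, lowered most counts by construction. With it, 4 members were called higher and 3 lower at 24 h, 1 higher and 0 lower at 48 h against 24 h, and 1 higher at 72 h against 48 h. Over all genes it called 1410 lower at 48 h, 976 higher and 1179 lower at 72 h, 126 higher and 51 lower at 48 h against 24 h, 18 higher and 8 lower at 72 h against 48 h, and 465 higher and 190 lower at 72 h against 24 h. At 48 h against 24 h, fitting only the groups compared left 1 member higher and 0 lower. SLC2A3 and CA9 had too few counts for the filter there and were not tested. With effective lengths in edgeR 0 were lower, and with the replicate block 0 were lower, CA9 being the call lost in both. At 72 h against 48 h, effective lengths left 1 member higher in DESeq2 and 1 in edgeR. Leaving out single libraries gave 1 to 2 members called lower at 72 h, 0 to 1 lower at 48 h against 24 h, 1 to 2 higher at 72 h against 48 h, and 1 to 2 lower at 72 h against 24 h. ANKRD37 became a second call lower at 72 h without No Dox replicate 3 or 72 h replicate 2. At 72 h against 24 h, CA12 was also called lower without 24 h replicate 2 or 72 h replicate 2, and EGLN3 without 72 h replicate 3. With upper-quartile factors, SLC2A1 (0.96) and PFKP (0.97) at 24 h, ALDOC at 72 h (0.99) and, just under the threshold, PGAM1 at 48 h lost the call. The glmTreat test also left out HK2, BNIP3L and SLC2A3 at 24 h. Apart from CA9, the replicate block changed no call of a member. Replicate numbers showed little sign of pairing. Deviations of same-number libraries had correlations of -0.205 to 0.32 in 18 pairs, and 3 exceeded 0.1. Their mean was 0.0173, against -0.0091 for other pairs. With 3 libraries per group this check cannot exclude a shared culture or batch. From counts over mean effective lengths, the BNIP3L share at 72 h was 44.9%. Depth limits CA9, ANKRD37 and SLC2A3, whose libraries held at most 68 counts. Proteins, metabolites and lactate were not measured.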
